A study of Mus musculus with 30 samples.

Results

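Melatonin is made from tryptophan by way of serotonin, and 6 genes of that route were followed here in mice lacking the clock gene Per3: the enzyme genes Tph1, Tph2 and Aanat, and the receptor genes Mtnr1a, Mtnr1b and Gpr50. They were taken by name from the annotation of the hypothalamus arrays, and the same probes were found in the eye by probe name. This gave 8 probes of the 41174 on the array that are not controls, with 2 probes each for Mtnr1a and Tph1 and 1 for each other gene. All 8 were measured on all 30 arrays, and none was saturated or marked as uneven or outlying on any of them.

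The mice were adult males of the C57BL/6J strain, Per3-/- animals and their wild type (WT) litter mates. Both genotypes had lived in a cycle of 3.5 h of light and 3.5 h of darkness and were killed in its light phase in cycle 17, so no group in another light regime or at another time entered the comparison. A hypothalamic block cut around the optic chiasm, which includes the suprachiasmatic nucleus, was taken from 8 WT and 8 Per3-/- mice, and the whole eye from 7 of each. The replicate numbers are those of the titles, and each array holds RNA of 1 mouse and 1 tissue.

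Tryptophan hydroxylase starts serotonin synthesis. Tph1 encodes the form of the pineal gland and of peripheral cells such as enterochromaffin cells and mast cells, and Tph2 the form of serotonin neurons, whose cell bodies lie in the brainstem and not in the hypothalamus. Ddc then completes serotonin, Aanat acetylates it, and Asmt turns the product into melatonin, chiefly in the pineal gland and to a lesser extent in retinal photoreceptors. Aanat is the step that rises at night in many species. C57BL/6J mice carry a defect in Aanat and make little melatonin. Mtnr1a and Mtnr1b encode the melatonin receptors MT1 and MT2, which couple to inhibitory G proteins and are known from the suprachiasmatic nucleus, the pars tuberalis and the retina, and Gpr50 encodes a related protein that does not bind melatonin and is known from tanycytes of the third ventricle.

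The 5 probes that lie in coding sequence are printed because the results turn on what each of them reads: both Mtnr1a probes, the probes of Mtnr1b and Gpr50, and the upstream of the 2 Tph1 probes. They are given 5′ to 3′ in the sense of the transcript, with positions on mm9 as in the array files, and each holds at least 1 reading frame without a stop codon.
Mtnr1a A_52_P656845, chr8:46172616-46172675, plus strand: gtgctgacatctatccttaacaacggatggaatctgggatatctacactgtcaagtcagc
Mtnr1a A_52_P73986, chr8:46173309-46173368, plus strand: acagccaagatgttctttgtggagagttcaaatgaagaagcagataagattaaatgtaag
Mtnr1b A_51_P338476, chr9:15667592-15667651, minus strand: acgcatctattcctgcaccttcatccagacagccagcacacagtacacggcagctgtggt
Gpr50 A_51_P211467, chrX:68920438-68920497, plus strand: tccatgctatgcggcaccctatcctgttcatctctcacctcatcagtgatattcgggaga
Tph1 A_52_P613868, chr7:53912586-53912645, minus strand: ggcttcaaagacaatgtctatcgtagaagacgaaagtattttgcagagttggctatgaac
The other Tph1 probe, A_51_P458130, lies at chr7:53902606-53902665 on the minus strand, nearer the 3′ end of the transcript. The Aanat probe A_51_P295511 lies at chr11:116458518-116458577 on the plus strand, and the Tph2 probe A_52_P673043 at chr10:114516101-114516160 on the minus strand. The G and C content of the 8 probes ran from 35.0% (Tph2 and Mtnr1a A_52_P73986) to 55.0% (Mtnr1b).

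Levels are given as log2 of the processed signal relative to the 75th percentile of the array, so a level of 0 equals that percentile and each step of 1 is a factor of 2 in signal. A spot counts as well above background when the scanner software marked it so. Per array, 67.9% to 75.6% of probes were well above background on the block arrays and 71.4% to 80.7% on the eye arrays. Per3 itself (A_51_P258493) had a median level of -3.45 in WT and -3.99 in Per3-/- hypothalamus, and -3.22 and -3.74 in the eye, and it stayed well above background on all arrays of both genotypes. Whether its probe lies inside the deleted part of the gene is not given in the sources used here. All 12 hypothalamic markers were well above background on at least 50% of the block arrays and all 10 eye markers on those of the eye. So were 11 of the 12 in the eye and 4 of the 10 in the block, so these counts do not separate the tissues. The summed levels did, with WT medians (in units of the 75th percentile) of 141 in blocks and 13.5 in eyes for hypothalamic markers. For eye markers they were 0.699 and 1253. Summed pars tuberalis and pituitary markers ran from 54.7 through a median of 61.8 to 98.4 in WT blocks. In Per3-/- blocks they ran from 49.5 through 57.6 to 879, the last in replicate 1. Chga had the highest mean level of that list.

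In the hypothalamus 4 of the 8 probes were well above background on at least 50% of the 16 arrays, those of Mtnr1b, Gpr50, Tph2 and Tph1 A_51_P458130, against 72.0% of all probes. In the eye 6 of 8 were, the same 4 with Aanat and Tph1 A_52_P613868, against 76.3% of all probes. Both Mtnr1a probes were the dimmest case in the eye, with 0 of 14 arrays well above background.

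**Figure D1:**
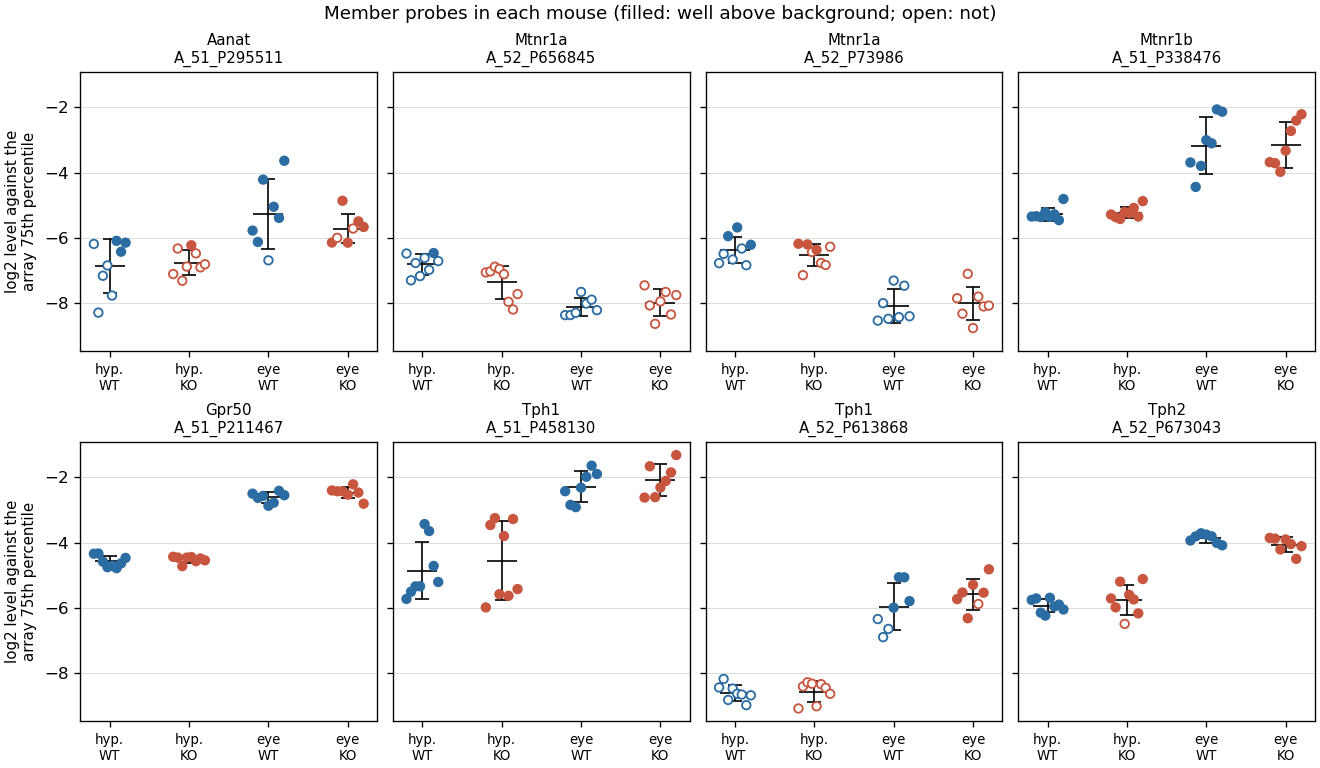
Each panel is 1 probe, each point 1 mouse, and the vertical axis the log2 level against the 75th percentile of the array. Filled points were well above background and open ones not, and black bars are the mean and SD of each group (8 mice a group in the hypothalamus, marked hyp., and 7 in the eye, with KO for Per3-/-). Gpr50 and Mtnr1b were filled in all mice of both tissues, Mtnr1a was open in all eyes, and hypothalamic Tph1 A_51_P458130 spread over 2.74 log2 units.

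Of the 3 receptor genes, Gpr50 had the tightest values. Its level in the hypothalamus had a lowest, median and highest value of -4.79, -4.61 and -4.34 in WT mice and of -4.72, -4.47 and -4.44 in Per3-/- mice. All 8 Per3-/- values lay inside the WT range, and the difference, Per3-/- minus WT, was 0.06 on the log2 scale (SE 0.07, 95% interval -0.09 to 0.21, limma adjusted p = 0.991). In the eye Gpr50 ran from -2.87 through a median of -2.57 to -2.41 in WT and from -2.81 through -2.42 to -2.21 in Per3-/-. The groups overlapped in 5 of 7 Per3-/- eyes, with 2 above the highest WT eye, and the difference was 0.15 (SE 0.09, interval -0.05 to 0.35, adjusted p = 1.0).

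Mtnr1b, the MT2 receptor gene, was well above background on all 30 arrays. Hypothalamic levels ran from -5.46 through a median of -5.35 to -4.81 in WT and from -5.43 through -5.27 to -4.88 in Per3-/-. The ranges overlapped in all 8 Per3-/- mice, and the difference was 0.04 (SE 0.09, interval -0.15 to 0.24, adjusted p = 0.991). Its eye levels ran from -4.44 through -3.10 to -2.06 in WT and from -3.98 through -3.33 to -2.21 in Per3-/-, with every Per3-/- eye inside the WT range and a difference of 0.03 (SE 0.40, interval -0.83 to 0.88).

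The spread of Mtnr1b among eyes went with the slide. On each eye slide both genotypes lay together, and the mean over its arrays was -3.68 for the slide with WT 1 and Per3-/- 2, -3.98 for replicates 3 and 4, -3.04 for 5 and 6, and -2.20 for 7 and 8. Within these slides the Per3-/- minus WT differences were 0.01, 0.27, 0.03 and -0.21, so both genotypes moved with the slide. Slide means took up 92.5% of the spread within genotypes in the eye, against 20.7% in the hypothalamus, where the 4 slide means lay between -5.34 and -5.13.

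The genes whose eye pattern was most like that of Mtnr1b were Olfr166, an olfactory receptor gene, Rfx4, a transcription factor gene, and Hira, a histone chaperone gene. Pearson's r over the 14 eyes, on deviations from the genotype means, was 0.997, 0.996 and 0.996, and with slide means also removed 0.970, 0.954 and 0.949. Of the 27745 other probes well above background on every eye array, 1613 had an r over 0.9 to Mtnr1b (5.81%). In the hypothalamus no probe had an r over 0.9 to Mtnr1b, and the 3 most like it were AK051124 (r = 0.892), Donson (0.884), which encodes a replication fork protein, and Zdhhc20 (0.869), a palmitoyltransferase gene. All these correlations are descriptions over arrays that share slides.

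**Figure D2:**
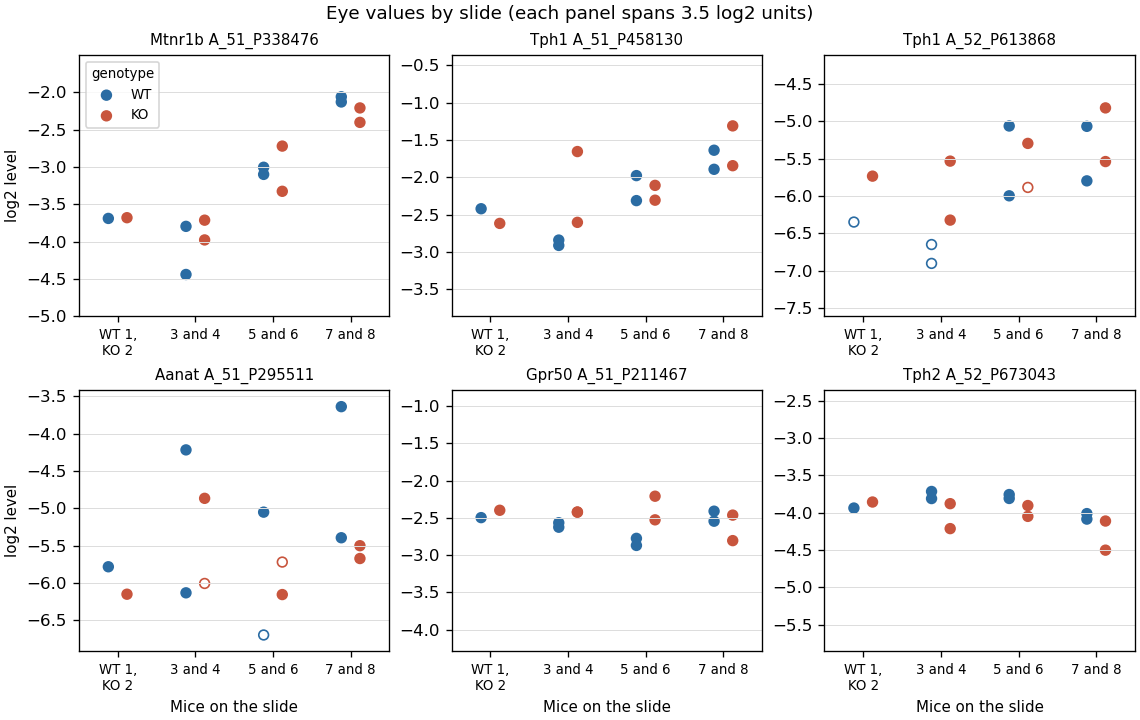
Eye levels of the 6 probes well above background on at least 50% of the eye arrays, by the mice on the slide, with WT in blue and Per3-/- in red and open points for spots not well above background. Every panel spans the same range of log2 levels. Mtnr1b rose from slide means of -3.98 to -2.20 in both genotypes together, while Gpr50 and Tph2 stayed within less than 1 log2 unit.

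Mtnr1a, the MT1 receptor gene, was at or near background throughout. The upstream probe A_52_P656845 had hypothalamic levels from -7.31 through a median of -6.75 to -6.47 in WT and from -8.21 through -7.09 to -6.89 in Per3-/-. The highest WT value (replicate 7) was the only 1 of 16 spots well above background. The 3 lowest mice were Per3-/- and lay below the lowest WT mouse, the other 5 Per3-/- mice inside the WT range. The difference was -0.55 (SE 0.20, interval -0.98 to -0.12), with an unadjusted p of 0.0148 and an adjusted p of 0.991 in limma, and a two-sided exact permutation p of 0.0199. At an unadjusted p under 0.05 limma marked 1163 of 41172 probes in this tissue (2.82%), and Mtnr1a A_52_P656845 came 283rd by p.

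Within the hypothalamic slides the difference for A_52_P656845 was -0.15 and 0.05 on those of replicates 1 to 4, and -0.74 and -1.37 on those of replicates 5 and 6 and of 7 and 8. The second Mtnr1a probe, A_52_P73986, was well above background in 3 mice of each genotype. It ran from -6.85 through -6.41 to -5.68 in WT and from -7.15 through -6.41 to -6.19 in Per3-/-, with 7 of 8 Per3-/- mice inside the WT range. Its difference was -0.16 (SE 0.18, interval -0.54 to 0.23, unadjusted p = 0.398). Since no Per3-/- array was well above background for A_52_P656845, its level there is only a bound, and the WT mean of -6.82 lay below that bound, so no fold is given.

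In the eye both Mtnr1a probes lay between -8.77 and -7.11 with no spot well above background, and the genotypes differed by 0.13 (SE 0.18) and 0.09 (SE 0.26). In bulk tissue a low signal from few cells and a low signal per cell cannot be told apart.

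Of the synthesis enzymes, Aanat was well above background in 3 WT and 1 Per3-/- hypothalamus and in 6 WT and 5 Per3-/- eyes. In the eye its level ran from -6.69 through a median of -5.39 to -3.64 in WT and from -6.15 through -5.72 to -4.86 in Per3-/-. The 2 highest eyes were WT (replicates 8 and 4), the lowest was also WT (replicate 5), and all Per3-/- eyes lay between them. The difference was -0.45 (SE 0.41, interval -1.34 to 0.43, unadjusted p = 0.292, adjusted p = 1.0), so that a fall of 1 log2 unit lies inside the interval. In the hypothalamus Aanat ran from -8.30 to -6.10 in WT and from -7.32 to -6.23 in Per3-/-, with a difference of 0.11 (SE 0.30).

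Eye Aanat was most like Krt28 (r = 0.911), a hair follicle keratin gene, Tnfaip8l2 (0.896), an immune regulator gene, and Rab11b (0.864), a vesicle transport gene, over the 14 eyes. It went with none of the other members (r from -0.41 to 0.26), and slide means took up 25.3% of its spread.

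Tph2, the neuronal hydroxylase gene, was well above background on all arrays but 1, that of Per3-/- replicate 4 in the hypothalamus. In the hypothalamus it ran from -6.24 through -5.93 to -5.70 in WT and from -6.50 through -5.73 to -5.12 in Per3-/-. The Per3-/- mice were the more spread (SD 0.47 against 0.20), with 3 above and 1 below the WT range, and the difference was 0.18 (SE 0.17, interval -0.19 to 0.54, adjusted p = 0.991). Of the 8 serotonin neuron markers, 6 were well above background on at least 50% of the hypothalamic arrays. The serotonin transporter gene Slc6a4 was so on 1 of 16, the midbrain and hindbrain gene En1 on none, and the summed level of the list ran from 14.4 to 19.4 in WT and from 12.6 to 19.6 in Per3-/- (in units of the 75th percentile), with the monoamine oxidase gene Maob highest.

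In the eye Tph2 ran from -4.08 through -3.81 to -3.71 in WT and from -4.50 through -4.05 to -3.86 in Per3-/-. The 3 lowest eyes were Per3-/-, the other 4 inside the WT range. The difference was -0.20 (SE 0.10, interval -0.42 to 0.02), with an unadjusted p of 0.0750, an adjusted p of 1.0 and an exact permutation p of 0.0676. Within slides it was 0.08 for the slide of WT 1 and Per3-/- 2, and -0.28, -0.19 and -0.26 for the other three. Limma with slide as a block gave an unadjusted p of 0.0382 and an adjusted p of 1.0.

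Tph2 was most like C630043F03Rik (r = 0.886), Cnst (0.872), which encodes consortin, and Tafa2 (0.828), a chemokine-like gene, in the hypothalamus. In the eye these places were taken by Armcx5 (0.895), Sco1 (0.892), a cytochrome oxidase assembly gene, and Etaa1 (0.884), a replication stress gene.

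Tph1 was read by 2 probes that differed in the hypothalamus. A_52_P613868, in the coding sequence, was not well above background in any of the 16 mice and ran from -9.09 to -8.19. A_51_P458130, near the 3′ end, was well above background in all 16. Its levels ran from -5.73 through a median of -5.28 to -3.43 in WT and from -5.99 through -4.61 to -3.25 in Per3-/-.

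These A_51_P458130 values fell into a higher and a lower set in both genotypes. In 6 mice (Per3-/- 2, 3, 5 and 7 and WT 5 and 6) they lay between -3.80 and -3.25, and in the other 10 between -5.99 and -4.72, with a gap of 0.92 between the sets. The higher set had mice on all 4 slides. Both genotypes had mice in each set. The difference between Per3-/- and WT was 0.31 (SE 0.50, interval -0.74 to 1.37, adjusted p = 0.991), and it was 0.89, 0.93, -1.18 and 0.61 within the slides.

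The genes most like Tph1 A_51_P458130 over the 16 blocks were Pde6g (r = 0.953), the inhibitory subunit of the phosphodiesterase of phototransduction, and Sag (0.939), the arrestin of rods and pinealocytes. Both probes were well above background in all 16 mice, and no other probe of 27036 had an r over 0.9. The next was Tmem18 at 0.734. The 6 mice with the highest Tph1 were also the 6 with the highest Sag and the 6 with the highest Pde6g. Sag lay between -4.32 and -3.39 in them and between -5.39 and -4.88 in the rest, and Pde6g between -2.41 and -1.87 against -3.33 and -2.95. Because the values form sets, r was also taken inside each, and was 0.714 (Sag) and 0.238 (Pde6g) over the 6 mice and 0.234 and 0.703 over the 10.

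**Figure D3:**
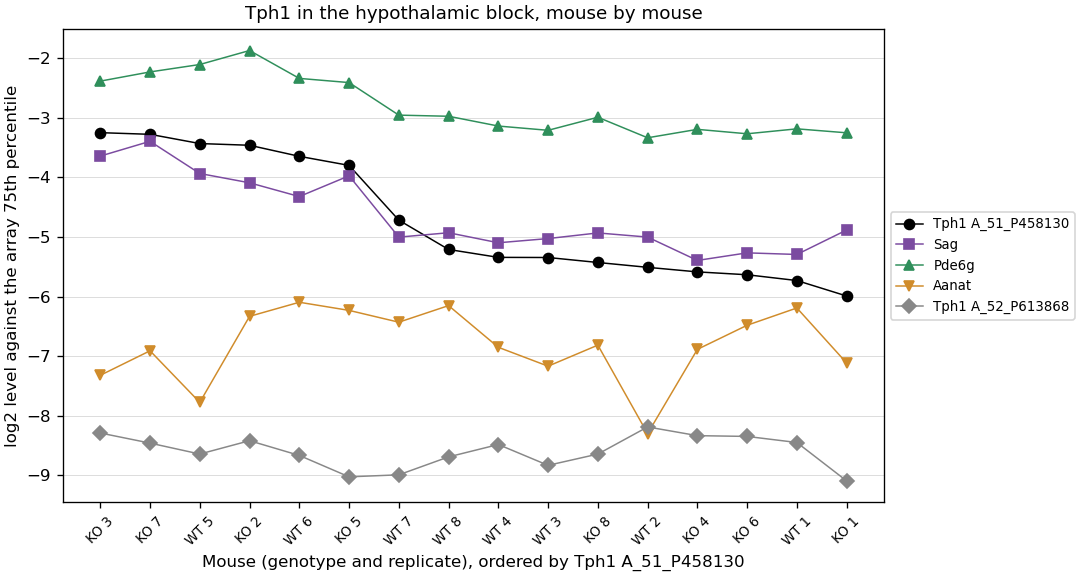
Log2 level against the array's 75th percentile in each of the 16 hypothalamic blocks, ordered from the highest to the lowest Tph1 A_51_P458130; lines join the values of 1 probe and are read along the line, not against each other. Tph1, Sag and Pde6g were high in the same 6 mice, while Aanat and the coding Tph1 probe were not. Aanat was well above background in 4 of the 16 blocks and the coding Tph1 probe in 0. Their dim values cannot decide whether they followed.

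The 10 markers of photoreceptors, which share Sag with the pineal gland, were looked at in the same blocks. Of these, 4 were well above background on at least 50% of the arrays, and the defining markers Pde6a and Opn1sw on none. The summed level of the list ran from 0.147 to 0.202 in WT and from 0.136 to 0.258 in Per3-/-. Only Sag and Crx had an r over 0.5 to Tph1, and Crx was well above background in 1 mouse, Per3-/- 3, the one with the highest Tph1. A list of 14 pinealocyte genes, written after these values had been seen, had 12 genes on the array, of which 6 were well above background on at least 50% of the arrays and Gngt1 on none. Its summed level ran from 0.301 to 0.543 in WT and from 0.318 to 0.580 in Per3-/-, with Pde6g highest. The list holds Sag and Pde6g, already known to go with Tph1, and 5 of its 12 genes had an r over 0.5. The rest of the 5 were Mpp4 (0.757) and Crx (0.592), well above background on 2 and 1 of 16 arrays, and Neurod1 (0.570), on all 16. Of all probes well above background on every block array, 1.19% had such an r. The list was chosen with these values known and holds dim probes, so the count is no test. Asmt was not on the array, and the Aanat levels of the 6 mice, from -7.78 to -6.10, lay among those of the other 10, from -8.30 to -6.15, but for the highest. The part of either cell type in the Tph1 values was not tested. The summed level of choroid plexus markers ran from 2.43 to 16.8 in WT and from 2.72 to 21.0 in Per3-/-.

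In the eye both Tph1 probes had signal. A_51_P458130 was well above background in all 14 eyes and ran from -2.91 through -2.31 to -1.64 in WT and from -2.62 through -2.11 to -1.31 in Per3-/-, with 1 Per3-/- eye above the WT range. A_52_P613868 was so in 4 WT and 6 Per3-/- eyes and ran from -6.90 through -6.00 to -5.06 and from -6.32 through -5.54 to -4.82. The 2 probes moved together over the eyes (r = 0.832). The genotypes differed by 0.22 (SE 0.25, interval -0.31 to 0.75) and by 0.39 (SE 0.31, interval -0.28 to 1.05), both at an adjusted p of 1.0.

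Over the eyes, A_51_P458130 was most like Timp4 (r = 0.965), a metalloproteinase inhibitor gene of heart and muscle, Cd300lg (0.965), a gene of capillary endothelium, and Fitm2 (0.960), a gene of lipid droplet formation in fat and muscle. A_52_P613868 was most like Csl (0.946), Fsd2 (0.944) and Perm1 (0.934), the last 2 genes of striated muscle. Of 12 skeletal muscle genes listed after these likenesses had been seen, all 12 had an r over 0.5 to each probe (0.540 to 0.956 and 0.647 to 0.910). Of all probes well above background on every eye array, 18.8% and 16.1% did. The list was not chosen apart from these values, since Ldb3 (0.956) was itself 6th among the genes most like A_51_P458130. The count is thus no test of a muscle source. The summed level of the 12 genes ran from 311 to 672 in WT and from 359 to 795 in Per3-/- eyes, with the fast troponin gene Tnni2 highest. Of 8 mast cell markers on the array, 4 and 5 had an r over 0.5, among them the tryptase gene Tpsb2 (0.844 and 0.886) and the chymase genes Mcpt4 (0.784 and 0.914) and Cma1 (0.794 and 0.882). The histidine decarboxylase gene Hdc (-0.20 and 0.11) and the receptor gene Kit (0.26 and 0.12) did not reach that r. Their summed level ran from 3.71 to 5.57 in WT and from 3.37 to 5.40 in Per3-/-, with Hdc highest. Of the serotonin neuron markers 4 of 7 had an r over 0.5 to each probe (median 0.656 and 0.599), and of the pars tuberalis and pituitary markers 3 and 4 of 9. No photoreceptor marker had an r over 0.5 to either probe. Slide means took up 59.4% and 56.7% of the spread of the probes, and the part of any of these cell types in Tph1 was not tested.

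Over both tissues, 0 of the 8 probes passed an adjusted p of 0.05 for genotype in limma, against 17 of 41172 in the hypothalamus (0.0413%) and 8 in the eye (0.0194%). At an unadjusted p under 0.05 there was 1 member in the hypothalamus, Mtnr1a A_52_P656845, and none in the eye, where 1.79% of all probes had such a p. Rank products, at an estimated share of false positives under 0.05, called no member, against 0.776% (hypothalamus) and 0.171% (eye) of all probes. The lowest share among the members was 0.070, for Mtnr1a A_52_P656845 as lower in the Per3-/- hypothalamus. The methods' t-test called none after adjustment (0.0340% and 0.0170% of all probes), and at an unadjusted p under 0.05 it named the same Mtnr1a probe in the hypothalamus and none in the eye (3.05% and 2.03% of all probes). The hypothalamic intervals were narrowest for Gpr50 (-0.09 to 0.21) and Mtnr1b (-0.15 to 0.24) and widest for Tph1 A_51_P458130 (-0.74 to 1.37), and in the eye they were widest for Aanat (-1.34 to 0.43).

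**Figure D4:**
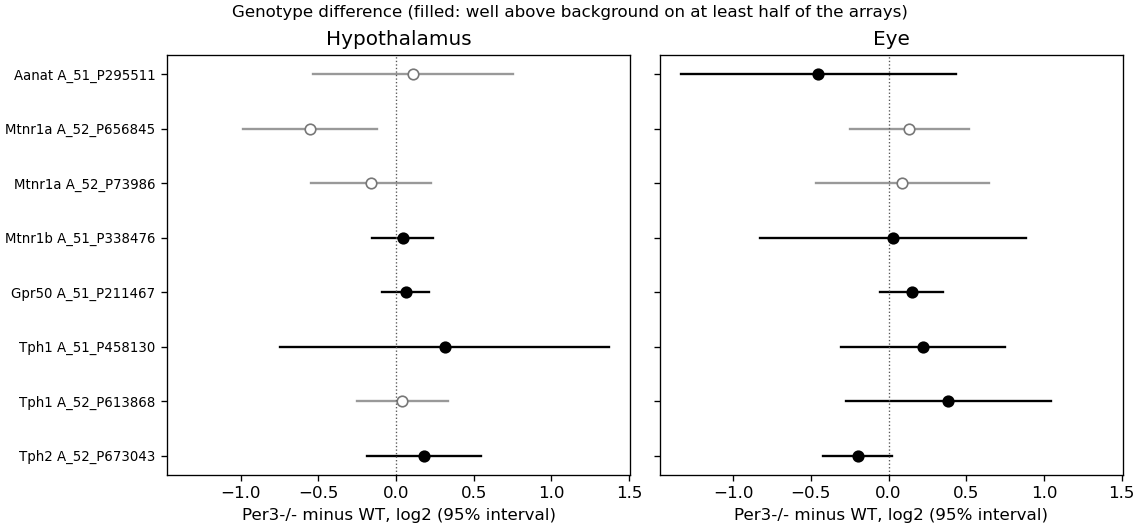
Difference between genotypes, Per3-/- minus WT on the log2 scale, with its 95% interval from limma, for each probe in each tissue. Filled points were well above background on at least 50% of the arrays. Only the interval of the dim probe Mtnr1a A_52_P656845 in the hypothalamus (-0.98 to -0.12) leaves out 0.

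The genotype effect was also compared between the tissues, with all 30 arrays in 1 fit. No member passed an adjusted p of 0.05, as did 2 of 41170 probes (0.00486%). At an unadjusted p under 0.05, as 2.22% of all probes had, there was 1 member, Mtnr1a A_52_P656845 (limma unadjusted p = 0.0162, adjusted p = 1.0). That probe was well above background on 0 of 14 eyes and 1 of 16 blocks, so no size is given for it.

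Between tissues the members differed far more than between genotypes, although each slide held 1 tissue and slide and tissue cannot be told apart. In WT mice all 8 probes passed an adjusted p of 0.05, but so did 75.6% of all probes (42.1% higher and 33.6% lower in the eye). Gpr50 was higher in the eye by 1.97 (SE 0.08, 3.91-fold), Tph2 by 2.06 (SE 0.14, 4.18-fold), Mtnr1b by 2.10 (SE 0.27, 4.28-fold) and Tph1 A_51_P458130 by 2.58 (SE 0.41, 5.96-fold). For each of these 4 the lowest eye lay above the highest block, also in Per3-/- mice. Aanat was higher by 1.59 (SE 0.35, 3.01-fold) with overlapping ranges. These sizes depended on the processing. With quantile normalization they fell to 1.47 (Gpr50), 1.38 (Tph2), 1.58 (Mtnr1b), 2.13 (Tph1 A_51_P458130) and 0.95 (Aanat). With normexp background correction they were 1.27, 0.94, 1.23, 1.65 and 0.48 in the same order.

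Tph1 A_52_P613868, dim in all blocks, was at least 1.45-fold higher in the WT eye and at least 2.0-fold higher in the Per3-/- eye. Both Mtnr1a probes had lower signal in the eye. For A_52_P73986, with 3 of 8 WT blocks well above background, the WT block mean of -6.37 lay close to the bound of the WT eyes (-6.42). No fold is therefore given for it, and in Per3-/- mice it had no bound above 1. A_52_P656845, well above background on 1 block in all, allowed no bound above 1. A lower bound here sets the brighter mean against the weakest signal well above background on the dim arrays. The brighter mean of Tph1 A_52_P613868 includes eyes not well above background (4 of 7 WT and 6 of 7 Per3-/- eyes were). With normexp background correction, 4 of the 8 probes passed in this comparison, the 4 that were dim on some arrays (Aanat, both Mtnr1a probes and Tph1 A_52_P613868) no longer doing so.

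The other genes of the pathway were 60 genes in 5 lists, of which 59 (98 probes) were on the array, Asmt being the one absent. In the hypothalamus 0 of 98 probes passed an adjusted p of 0.05 and 7 had an unadjusted p under 0.05, 6 of them lower in Per3-/- mice. Of all probes 2.82% had such a p, 1.57% lower and 1.26% higher. The 7 include probes of Cyp1b1 (A_52_P297822) and Htr2b (A_51_P200388) with 0 of 16 spots well above background, and Slc6a4 with 1. In the eye 0 of 98 passed and 2 had such a p, 1 in each direction, against 1.79% of all probes. The median difference over the 98 probes was -0.0020 (hypothalamus) and 0.028 (eye), beside -0.014 and 0.0041 over all probes.

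Among the synthesis and cofactor enzymes (10 probes) no difference passed. Ddc, the decarboxylase that makes serotonin and dopamine, had a mean level of 2.54 in WT and 2.57 in Per3-/- hypothalamus and of -1.50 and -1.51 in the eye, and differed by 0.02 (SE 0.16) and -0.0012 (SE 0.07). Gch1, which makes the cofactor tetrahydrobiopterin, was named for its p in the eye. There the brighter of its probes was at -2.98 in WT and -2.70 in Per3-/- (difference 0.28, SE 0.13, limma unadjusted p = 0.0538).

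Of the genes of breakdown and competing routes, Maoa, a monoamine oxidase gene, differed by -0.02 (SE 0.05) in the hypothalamus and -0.05 (SE 0.06) in the eye. Ido1, an enzyme that takes tryptophan into the kynurenine route, was at -2.91 in Per3-/- and -2.66 in WT hypothalamus (difference -0.26, SE 0.12, unadjusted p = 0.0446). Cyp1b1, a cytochrome that hydroxylates melatonin, was at -2.09 against -2.42 in the hypothalamus (difference 0.33, SE 0.16) and at -0.55 against -0.80 in the eye (difference 0.25, SE 0.12), and neither passed. Its dimmer probe A_52_P297822, with 0 of 16 hypothalamic spots well above background, went the other way there (difference -0.63, SE 0.21, limma unadjusted p = 0.00895). Cyp1a1, of the same family, spread widely over the eyes, from -7.76 to -3.70 in WT and from -5.75 to -2.97 in Per3-/- (difference 1.02, SE 0.58, unadjusted p = 0.104).

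Among the transport genes, Slc6a4 was dim in the hypothalamus, at -7.57 in WT and -6.90 in Per3-/- (difference 0.66, SE 0.29, unadjusted p = 0.0354, adjusted p = 0.991). Its only spot well above background was in a Per3-/- mouse, so the difference is one of dim signals and no fold is given. In the eye it was well above background in 3 WT and 6 Per3-/- mice, and the difference was 0.26 (SE 0.23).

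Of the serotonin receptors, Htr2c, a receptor gene of choroid plexus and hypothalamic neurons, differed by -0.12 (SE 0.08) in the hypothalamus and by -0.08 (SE 0.50) in the eye. Htr1b, an inhibitory receptor gene, was at -5.21 in WT and -5.42 in Per3-/- hypothalamus (difference -0.21, SE 0.10, unadjusted p = 0.0475), and Htr5b at -1.11 and -1.41 (difference -0.30, SE 0.15). Of the regulators of Aanat and receptor coupling, Rgs4, which shortens G protein signals, was at 2.66 and 2.44 in the hypothalamus (difference -0.22, SE 0.09, unadjusted p = 0.0240). Ywhaz, a 14-3-3 protein gene whose product binds the phosphorylated enzyme, was at 2.20 and 2.04 in the eye (difference -0.17, SE 0.06, unadjusted p = 0.0147), and Gnai1, an inhibitory G protein gene, at 2.20 and 2.11 (difference -0.08, SE 0.07). Rank products, at an estimated share of false positives under 0.05, named 1 of these 98 probes as lower (Htr2b A_51_P200388, a serotonin receptor probe not well above background on any of the 16 arrays) and 1 as higher (Slc6a4) in the Per3-/- hypothalamus and none in the eye. Both were named after their values had been seen. The brighter Htr2b probe, A_52_P181925, well above background on 15 of the 16 hypothalamic arrays, differed by 0.21 (SE 0.34). In limma the genes above had adjusted p-values between 0.991 and 0.995 in the hypothalamus and of 1.0 in the eye.

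**Figure D5:**
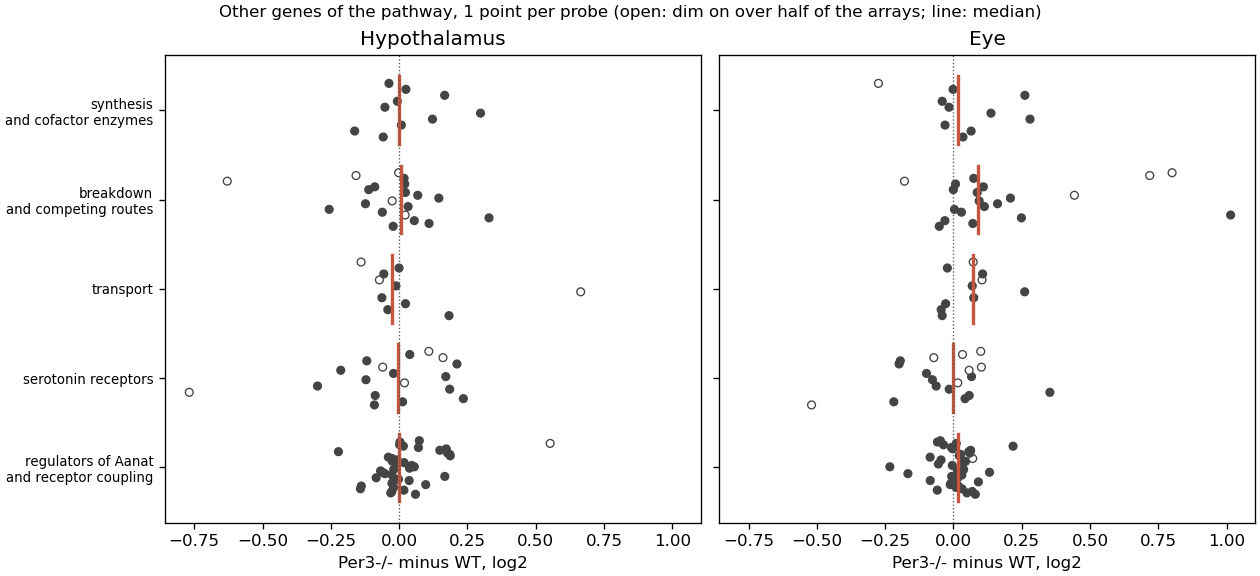
Differences between genotypes (Per3-/- minus WT, log2) of the 98 probes of the other pathway genes, by list and tissue, each point 1 probe, with open points for probes well above background on under 50% of the arrays and a red line at the median of each list. The medians lay between -0.03 and 0.09, and no probe passed an adjusted p of 0.05.

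Of the 10 synthesis and cofactor probes, 7 were lower in the WT eye than in the WT hypothalamus at an adjusted p of 0.05 (33.6% of all probes were) and 3 higher (42.1%), with a median difference of -1.48 against 0.16 over all probes. Ddc A_52_P470150 differed by -4.05 (SE 0.13), eye minus hypothalamus. The 2 probes of Gch1 went opposite ways, A_51_P297579 by 0.35 (SE 0.13) and A_52_P298002 by -1.18 (SE 0.14). The probes of Htr2c disagreed in size, A_52_P487454 differing by -6.28 (SE 0.12) and A_51_P370810 by -1.33 (SE 0.34), while A_52_P164255 had 0 spots well above background. Slc6a4 was well above background in 3 of 7 WT eyes and 0 of 8 WT blocks. Its WT eye mean of -5.86 rests largely on spots not well above background, so no fold is given.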

How the data were processed

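Gene expression was measured with 1 single-colour (Cy3) array of 60-mer probes per mouse and tissue. Spot intensities came from Agilent Feature Extraction as run by the authors. The deposited processed intensity of a spot is linear, with background subtracted and no normalization between arrays, per the file headers. The authors also deposited a log2 table, which by its values holds the processed signal relative to the array's 75th percentile, centred on each probe's median within a tissue.

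Intensities were averaged per probe for 41174 probes, control spots excluded, then taken to log2 with no pseudocount, and set relative to the array's 75th percentile. Spots marked uneven or outlying were left out. Positions are those of the hypothalamus array files (mm9).

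Per3-/- and WT arrays of a tissue were compared in limma 3.58.1 (R 4.3.3), adjusting p over all probes by the Benjamini-Hochberg method. Single member probes were also given two-sided exact permutation tests. Tissues and the genotype-by-tissue difference were estimated in 1 fit of all 30 arrays, taking the mouse numbered in the titles as random block (correlation 0.0592). Rank products used all pairs of a WT and a Per3-/- array, with values permuted within arrays (100 permutations). The methods' t-test was run on the same values. Python 3.11.15, numpy 2.4.6, pandas 2.3.3 and scipy 1.17.1 were used otherwise.

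On simulated data with 200 changed probes, limma recovered 84% (hypothalamus) and 75% (eye) of changes of 1 log2 unit, with 18 and 10 false calls among 40875 probes, where rank products made 1138 and 962. The simulated noise was independent between probes and had no slide effect, unlike the data. On the data rank products called 318 and 70 probes in all. The simulated shares are therefore not the power or the false calls of the comparisons above.

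The members and gene lists were chosen with earlier results of these data known. Named were all member probes, in each tissue the 5 other pathway genes of lowest unadjusted p among those well above background on at least 50% of its arrays, Ddc, Asmt, Slc6a4, Maoa and Htr2c in any case, and for each member probe well above background on at least 50% of a tissue's arrays the 3 genes of highest Pearson r. Outside the members the brightest probe of a gene was used. The lists of pinealocyte and skeletal muscle genes were added after the values had been seen. Alternatives were quantile normalization, normexp background correction (offset 50), a filter on dim probes, slide or replicate number as a block, the authors' log2 table, marked spots kept, and leaving out each mouse. The number of arrays and the signal over background limit the precision.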

Additional observations from a re-analysis of the deposited data

Results flagged for a closer look

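In the 32 groups formed by the 8 probes, both tissues and both genotypes, 1 value lay far from the rest of its group by Dixon's test, a test that chance passes in about 1 of 20 groups. It was Mtnr1b in the hypothalamus of WT replicate 8, at -4.81 with the nearest WT mouse at -5.21, and its spot was well above background. No member's genotype effect differed between the tissues after adjustment.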

How the results depend on the processing

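No alternative called a member for genotype in either tissue, whether another normalization, filter, block or test, or leaving out any 1 mouse (0 members called each time). The number of pathway probes called stayed at 0 except with rank products, which named 1 lower and 1 higher in the Per3-/- hypothalamus. The difference of Mtnr1a A_52_P656845 in the hypothalamus stayed negative, from -0.62 to -0.44 with 1 mouse left out and -0.29 with normexp. In the eye normexp moved the median difference of all probes from 0.0041 to 0.175 and in the hypothalamus from -0.014 to -0.080. With it, 5 member differences changed sign, none of them called: Mtnr1b (-0.15), Gpr50 (-0.059) and Tph2 (-0.073) in the hypothalamus, and Aanat (0.078) and Tph2 (0.13) in the eye, the last 2 below the shifted median. WT eye against WT hypothalamus gave 4 members with normexp and 4 with the filter on dim probes, which kept 4 of the 8. By the looser mark of a positive and significant signal, 7 members were present on at least 50% of the hypothalamic arrays. Replicate numbers were not taken to pair the mice, since same-numbered mice of both genotypes had correlations from -0.20 to 0.40 over 8 pairs in the hypothalamus and from 0.0020 to 0.68 over 6 in the eye, where 5 of 6 were most like their own number. With the replicate block 0 members were called, all probes called fell from 17 to 5 and, over the 6 numbers present in both genotypes, from 7 to 1, and eye Tph2 differed by -0.24 (limma unadjusted p = 0.0276). The causes of these shifts were not tested. Signals not well above background limit the values of Mtnr1a in both tissues and of Aanat and the coding Tph1 probe in the hypothalamus.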
